A study of Homo sapiens with 58 samples.

Results

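Of the 58 breast cell lines profiled, one array each, 8 were set against each other here: 4 epithelial lines from breast tissue that was not malignant (MCF102A, MCF12A, HMT3522S1 and HMT3522T42) and 4 fibroblast-like lines (HS362T, HS579MG, HS605T and HS739T). The lines were picked by name and by no rule on a measured value, though earlier results of these data were known when they were chosen. The sorting of names into kinds of line rests on general knowledge, since the labels call every sample breast cancer and give no tissue, donor or means of immortalisation. HMT3522T42 is the tumorigenic derivative of HMT3522S1, so these related lines were averaged and counted as 1, which left 3 epithelial units against 4 fibroblast-like lines, 7 of the 50 units in the series. All cultures were untreated and grown as their supplier advises, and the medium of each line is not given in the sources used here, so medium and kind of line cannot be told apart. No line was arrayed more than once. Every error given below rests on the spread between lines of a kind, not between cultures of a line. That spread is pooled over both kinds and moderated by a trend over all genes tested. With 3 units against 4 an exact two-sided permutation test of a single value cannot go below 0.0571.

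Epithelial cells live as sheets, held to each other by cadherins and desmosomes, braced by keratins and seated on a basement membrane of laminin and type IV collagen that they grip with integrins. Fibroblasts live singly inside a matrix that they spin themselves from fibrillar collagens, fibronectin and proteoglycans, and they remodel it with secreted proteases. Basal mammary cells, the outer layer of the duct, share some mesenchymal genes while keeping an epithelial keratin set. Transcription factors of the SNAIL and ZEB families bind short E-box motifs in promoters of epithelial genes and shut them off, and the miR-200 family in turn restrains ZEB factors.

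Values are log2 signals after RMA, a method that corrects background, equalises the distributions of the arrays and summarises the probes of each probe set; each gene is read from the probe set, among those matched to that gene alone, with the highest mean over the series. Sets of 4 values follow the order MCF102A, MCF12A, HMT3522S1, HMT3522T42 for epithelial lines and HS362T, HS579MG, HS605T, HS739T for fibroblast-like lines. A difference is the fibroblast-like mean minus the epithelial mean, so a positive value is higher in fibroblast-like lines, and 1 unit is a doubling. The background level was set at 5.64, the 95th percentile of 574 probe sets named after viruses, and a fold against a side that lies wholly at or under that level is written as a lower bound. Arrays read RNA from a whole culture, so fewer cells expressing a gene and less RNA per cell cannot be told apart.

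The 3 genes that define these kinds of cell came out on the sides that the line names gave, with one exception in HMT3522T42. KRT5, the keratin of basal epithelium, read 13.42, 13.41, 13.31 and 12.60 in the epithelial lines and 2.95, 3.38, 3.18 and 3.88 in the fibroblast-like lines. All 4 epithelial lines lay near the top of the scale and all 4 fibroblast-like lines under background, a difference of -9.91 (SE 0.28, adjusted p = 3.53e-06 by limma with Benjamini-Hochberg adjustment, as for every adjusted p here), or at least 197-fold. COL1A2, the second chain of type I collagen, gave the mirror image, at 4.45, 4.31, 4.59 and 4.66 in the epithelial lines against 14.09, 13.98, 14.03 and 13.98 in the fibroblast-like lines. No epithelial line rose above background, and the difference of 9.56 (SE 0.14, adjusted p = 2e-07) is at least 334-fold. CDH1, or E-cadherin, the adhesion molecule of epithelial sheets, read 12.91, 9.45 and 8.67 in MCF102A, MCF12A and HMT3522S1 but 5.14 in HMT3522T42, against 3.93, 5.05, 4.47 and 5.02 in the fibroblast-like lines. HMT3522T42 was thus at background for CDH1 although KRT5 was high in it. The CDH1 difference of -5.14 (adjusted p = 0.0217) loses its call when HS362T or HS605T is left out (adjusted p = 0.054 and 0.0529). Without MCF102A, MCF12A, HMT3522S1 or the HMT3522 pair CDH1 fell under the filter and was not tested.

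Over the 12190 genes tested, 3649 (29.9%) differed at an adjusted p under 0.05: 1627 (13.3%) were higher in fibroblast-like lines and 2022 (16.6%) in epithelial lines. The remaining 70.1% were not called. Without regard to the test, the kinds did not overlap in 2152 genes (17.7%) that were higher in fibroblast-like lines and 2836 (23.3%) that were higher in epithelial lines. Without MCF12A 1522 genes were higher in fibroblast-like lines and 1454 in epithelial lines, and without the HMT3522 pair 1328 and 1306. Without MCF102A the epithelial count stayed the larger, at 1698 and 1934. With an epithelial unit left out, a gene above the array median in epithelial units alone cannot reach the 3 units that the filter asks for. These runs therefore cannot show whether the larger epithelial count is stable. Among called genes whose difference reached 2 (4-fold), 721 (5.91%) were higher in fibroblast-like lines and 446 (3.66%) in epithelial lines. In 312 of those 721 genes every epithelial unit was at or under background, and in 189 of the 446 every fibroblast-like line was. Within this series, 131 of the 721 genes were lower in each of the 43 other units than in the lowest fibroblast-like line. Of the 446 genes, 8 were lower in each of those units than in the lowest epithelial unit. These counts depend on the kinds of line among the other units, all labelled breast cancer. The shares over all genes were not worked out, and the difference was not tested. Genes just inside the threshold were ARFGEF2, GFM1, GGT7 and PTMA, and just outside it ATG10, PARP10, CIPC and NUDC.

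**Figure D1:**
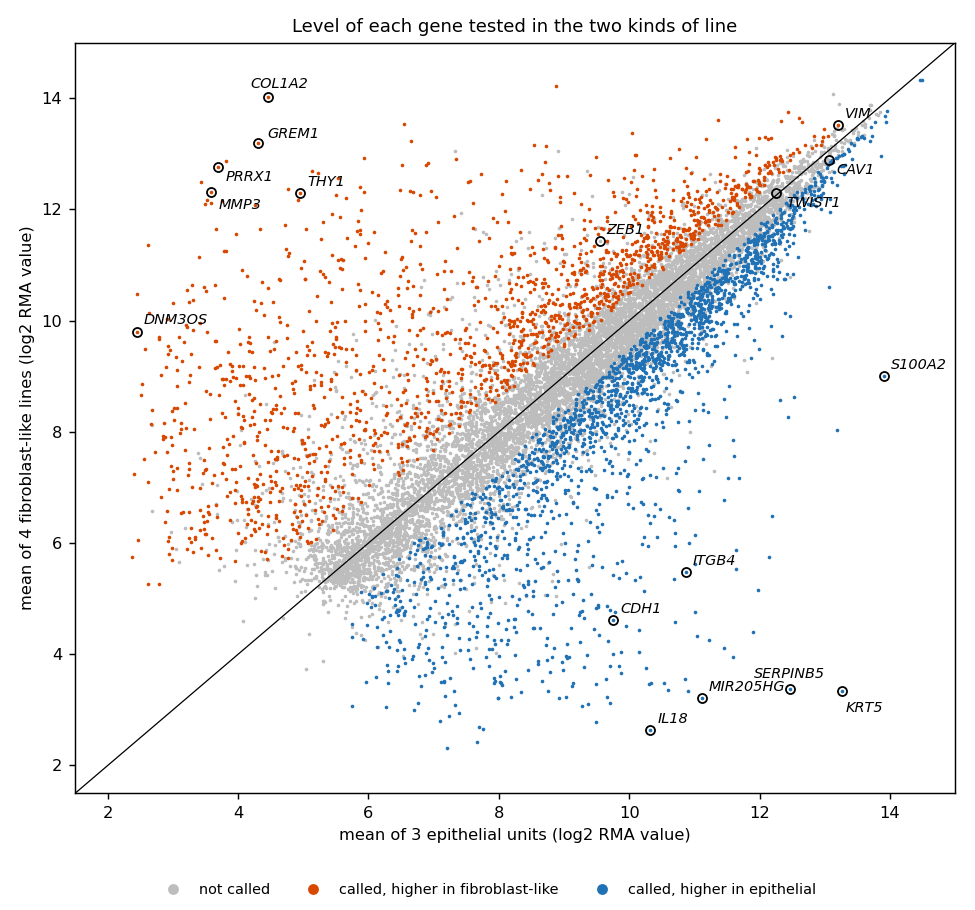
Mean log2 RMA value of each gene tested in the 3 epithelial units (horizontal axis) and the 4 fibroblast-like lines (vertical axis), with genes called higher in either kind coloured and the diagonal marking equal levels. COL1A2, PRRX1 and GREM1 lie at the upper left, KRT5, SERPINB5 and MIR205HG at the lower right, and VIM, CAV1 and TWIST1 near the diagonal at high levels in both.

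An array measure moved with the 2 kinds of line. The width of each array's relative log expression (its middle 50% of differences from the gene medians of the series, which grows as an array departs from the typical one) ran from 0.466 to 0.520 in the epithelial units and from 0.562 to 0.639 in the fibroblast-like lines (exact permutation test, two-sided p = 0.0571, the smallest this design can give). It does not overlap between the kinds, and the highest value of all 58 arrays belongs to a fibroblast-like line. With that measure as a covariate the calls shrank to 195 genes higher in fibroblast-like lines and 93 higher in epithelial lines, so array departure and kind of line cannot be told apart. Some markers of other cell types were at or under background in all 7 units: PTPRC and CD3E of blood, CDH5 and VWF of endothelium, ADIPOQ of fat, SOX10 and MLANA of melanocytes, GFAP of glia and MYOD1 of muscle. Such members numbered 3 of 9 for blood, 4 of 8 for endothelium and 7 of 8 for muscle. For the fat, melanocyte and neural lists they numbered 4 of 7 each. The share of all genes at or under background in all 7 units was not worked out. These counts therefore cannot show whether such cells were absent. The summed log2 level of the endothelial list was 8.04 to 10.7 in the fibroblast-like lines and 7.40 to 8.97 in the epithelial units. Of its 3 tested members 0 were called, beside 29.9% of all genes in either direction. Part of the pericyte list moved with kind of line. Pericytes are cells that wrap small vessels and share many genes with fibroblasts. Of the list, 4 of 7 tested members, PDGFRB, KCNJ8, CSPG4 and ABCC9, were higher in fibroblast-like lines, beside 13.3% of all genes. DES was at background. Its summed level on the log2 scale was 12.1 to 13.1 in the fibroblast-like lines and 8.11 to 12.8 in the epithelial units, and its part in the results was not tested. Among the rest, FABP4 and RAB38 of the fat and melanocyte lists and CD14, ITGB2 and CORO1A of the blood list were higher in epithelial lines, and CD68 and STMN2 of the blood and neural lists in fibroblast-like lines.

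**Figure D2:**
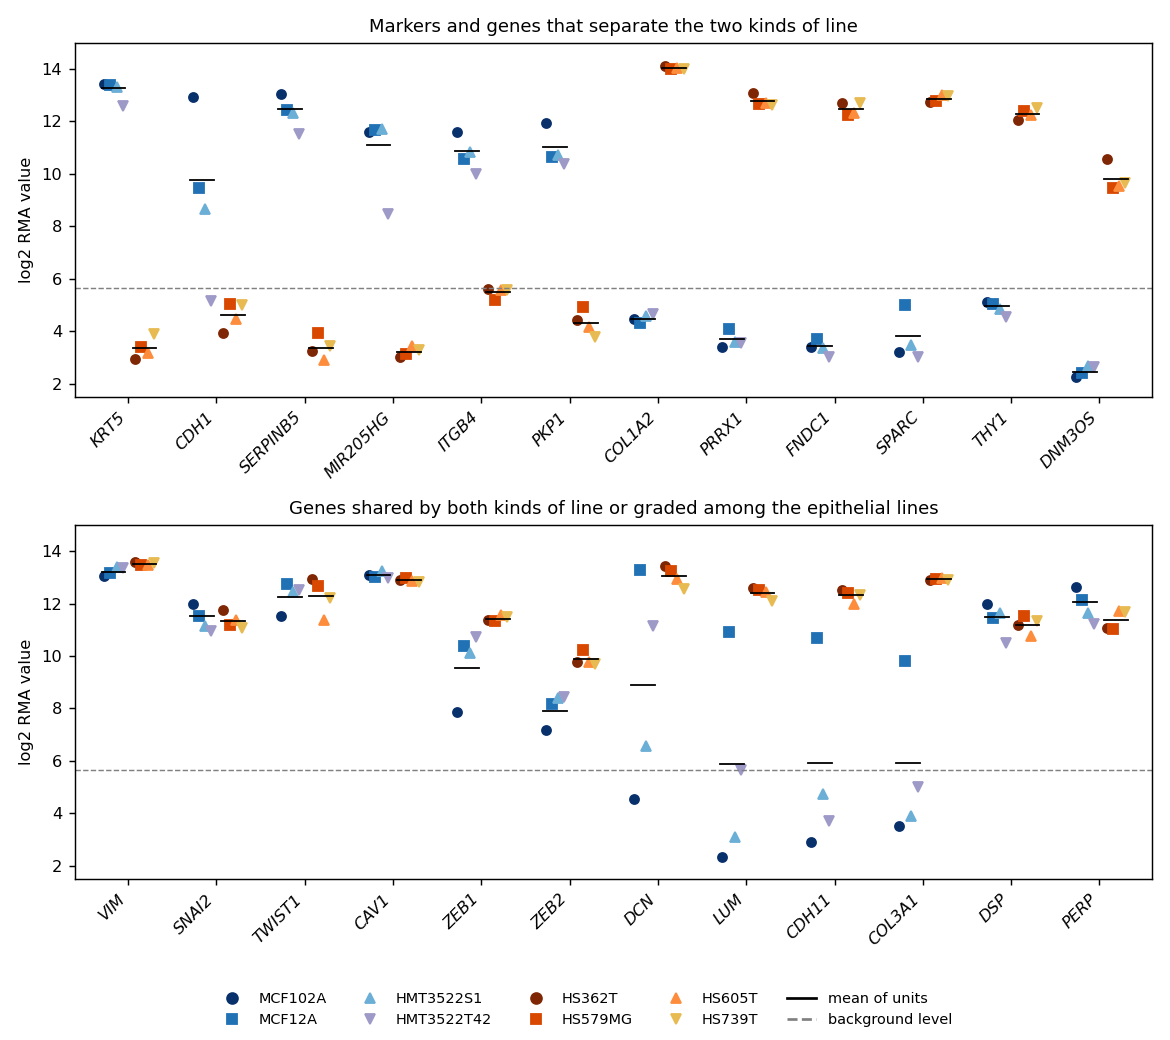
Log2 RMA value of 24 genes in each of the 8 lines (a symbol per line), with the mean of the 3 or 4 units as a bar and the background level of 5.64 dashed. The upper panel holds genes that part the kinds, CDH1 in HMT3522T42 excepted; the lower panel holds genes at like levels in both, such as VIM, and genes that only some epithelial lines share, such as DCN.

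Host transcripts of microRNAs were among the genes that parted the lines, and the small RNAs inside them are shown for that reason, since they include regulators of the epithelial state; the array read the host transcripts, not the mature small RNAs. MIR205HG carries miR-205, MIR200CHG overlaps the miR-200c and miR-141 pair, DNM3OS carries miR-199a and miR-214, and CARMN carries miR-143 and miR-145. All but MIR205HG were picked after their values had been seen. Mature sequences from RefSeq (GRCh38.p14) run 5′ to 3′ with the seed, bases 2 to 8, in capitals, and no seed is shared among the 8.
miR-205-5p (chr1:209432166-209432187, plus strand, in MIR205HG): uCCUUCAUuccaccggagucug
miR-200c-3p (chr12:6963742-6963764, plus strand, in MIR200CHG): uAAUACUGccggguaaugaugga
miR-141-3p (chr12:6964155-6964176, plus strand, in MIR200CHG): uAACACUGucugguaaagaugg
miR-199a-5p (chr1:172144592-172144614, minus strand, in DNM3OS): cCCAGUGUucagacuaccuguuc
miR-199a-3p (chr1:172144554-172144575, minus strand, in DNM3OS): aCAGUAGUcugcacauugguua
miR-214-3p (chr1:172138816-172138837, minus strand, in DNM3OS): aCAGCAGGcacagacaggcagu
miR-143-3p (chr5:149428978-149428998, plus strand, in CARMN): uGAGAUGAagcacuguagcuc
miR-145-5p (chr5:149430661-149430683, plus strand, in CARMN): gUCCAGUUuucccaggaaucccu

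MIR205HG read 11.58, 11.66, 11.72 and 8.47 in the epithelial lines and 3.03, 3.14, 3.42 and 3.27 in the fibroblast-like lines, a difference of -7.90 (SE 0.40, adjusted p = 3.83e-05). HMT3522T42 stood below its parent HMT3522S1 yet well above every fibroblast-like line. MIR200CHG was graded in the epithelial lines, at 7.72, 6.93, 6.04 and 4.95, against 4.25, 4.26, 5.05 and 4.62 in the fibroblast-like lines (difference -2.17, adjusted p = 0.0209), and HMT3522T42 lay within the fibroblast-like range for it. On the other side, DNM3OS read 2.25, 2.42, 2.69 and 2.63 in the epithelial lines and 10.58, 9.46, 9.55 and 9.63 in the fibroblast-like lines (difference 7.36, SE 0.32, adjusted p = 2.06e-05). Every epithelial line was far under background for it. CARMN was weaker but as cleanly parted, at 4.03, 3.96, 3.84 and 3.88 against 6.71, 7.20, 6.75 and 7.19 (difference 3.01, adjusted p = 0.000231).

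Genes of epithelial cell contact were higher in the epithelial lines as a group. Of 18 tested genes for adhesion and polarity 12 were called higher in epithelial lines, beside a background of 16.6% of all genes in that direction. The median difference of the 18 was -3.45 (-2.81 over the 27 members on the array), where that of all genes tested was -0.08. Without MCF102A or without MCF12A the count was 4 and 3, but a gene above the array median in epithelial units alone cannot then pass the filter. CDH3, or P-cadherin of basal epithelium, read 12.39, 10.58, 11.08 and 10.31 against 4.12, 4.37, 4.94 and 3.62 (difference -6.96, adjusted p = 0.000242). All 4 epithelial lines had it, HMT3522T42 included. MAL2, a protein of apical transport, read 11.50, 10.04 and 9.33 in MCF102A, MCF12A and HMT3522S1 and 3.76 in HMT3522T42, against 2.72 to 3.43 in the fibroblast-like lines (adjusted p = 0.00601). EPCAM, an epithelial adhesion molecule, stepped down in the same order, at 10.58, 9.34, 8.75 and 6.61, against 4.20 to 5.98 (difference -3.85, adjusted p = 0.00887). The tight-junction claudin CLDN7 read 10.42, 7.54, 9.61 and 5.65 against 4.83 to 5.49 (difference -3.39, adjusted p = 0.012), with HMT3522T42 again the epithelial line next to the fibroblast-like range. SPINT2, an inhibitor of surface proteases, was called as well, with a difference of -4.28, and so were CDS1, CLDN1, PARD6B, SPINT1, AP1M2 and MARVELD2.

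Several classic epithelial genes are missing from these calls, and of the 4 epithelial lines MCF102A alone was well above background for them. RAB25, a regulator of membrane recycling, read 11.51 in MCF102A and 4.03 to 4.73 in the other epithelial lines. CLDN4 read 9.97 in MCF102A and 3.74 to 5.43 in the others, and the surface protease ST14 read 10.07 against 4.74 to 5.47. None of these could pass the filter, which asks for a level above the array median in at least 3 of the 7 units; they were chosen after their values had been seen. ESRP1, the splicing factor of epithelial exons, also fell under that filter: 12.23, 10.26, 6.07 and 3.23 in the epithelial lines and 2.61 to 3.69 in the fibroblast-like lines. Most of the 43 other units lay above the lowest epithelial unit for RAB25 (36), CLDN4 (41) and ESRP1 (36).

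The promoters of CLDN7 and KRT5 are shown because both genes were under background in every fibroblast-like line and their promoters differ in how many E-boxes they hold; they were picked after those values had been seen. The 250 bases before each transcript start come from RefSeq (GRCh38.p14), 5′ to 3′ along the gene, with the E-box CAGGTG and its reverse complement CACCTG in capitals; CLDN7 has 2 starts in the table, and the one shown is the one with more matches.
CLDN7 (chr17:7262479-7262728, minus strand): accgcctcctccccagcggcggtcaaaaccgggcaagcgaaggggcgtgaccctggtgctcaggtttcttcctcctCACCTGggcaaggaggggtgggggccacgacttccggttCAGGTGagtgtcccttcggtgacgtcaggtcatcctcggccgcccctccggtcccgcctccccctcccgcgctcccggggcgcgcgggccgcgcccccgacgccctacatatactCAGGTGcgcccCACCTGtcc
KRT5 (chr12:52520395-52520644, minus strand): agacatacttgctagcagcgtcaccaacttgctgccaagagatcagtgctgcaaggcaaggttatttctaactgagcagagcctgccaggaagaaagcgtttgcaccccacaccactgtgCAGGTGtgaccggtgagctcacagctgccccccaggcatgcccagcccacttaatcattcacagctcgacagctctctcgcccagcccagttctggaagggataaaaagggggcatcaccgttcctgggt
The CLDN7 stretch holds 4 matches and the KRT5 stretch 1. At least 1 match lies in 17.5% of the 35116 promoter entries of this length, in 17.3% of those of genes called higher in epithelial lines and in 13.5% of those called higher in fibroblast-like lines. Of the 12 adhesion genes called, 6 have an entry. They have 8 entries, of which 4 (50%) hold a match, in AP1M2, CDS1, CLDN7 and SPINT1. For the called desmosome genes 2 of 7 entries (28.6%) hold a match, in DSC2 and JUP. These shares rest on few entries and were not tested. A match is a run of letters and was not tested as a binding site.

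Desmosomes, the spot welds of epithelium, split into parts that the fibroblast-like lines lacked and parts that they kept. Of 12 tested members 8 were called higher in epithelial lines, beside 16.6% of all genes. The median difference of the 12 was -4.73 (-3.70 over the 14 members on the array). PKP1, a plakophilin of the desmosome plaque, read 11.93, 10.64, 10.71 and 10.38 against 4.41, 4.93, 4.17 and 3.79 (difference -6.71, adjusted p = 0.000109), and no fibroblast-like line rose above background. The desmosomal cadherins DSC3 and DSC2 differed by -6.06 and -5.72, the plakophilins PKP2 and PKP3 by -6.03 and -4.79, and DSG3 by -5.06. DSP, or desmoplakin, which ties the plaque to keratin, was by contrast at 11.98, 11.44, 11.65 and 10.51 in the epithelial lines and 11.17, 11.52, 10.76 and 11.32 in the fibroblast-like lines (difference -0.31, adjusted p = 0.4). PERP, a membrane protein of desmosomes, was similar, at 11.23 to 12.62 against 11.02 to 11.70 (adjusted p = 0.13), and the cadherin DSG2 reached 8.72, 10.73 and 10.83 in HS579MG, HS605T and HS739T but 6.05 in HS362T (adjusted p = 0.108, and 0.0458 with averaged probe sets). These 3 were named after their values had been seen. Desmosome calls number 2 when either MCF102A or MCF12A is left out, but a gene above the array median in epithelial units alone cannot then pass the filter.

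Keratins beyond KRT5 were less clean. KRT15, another basal keratin, read 9.51, 8.77, 8.67 and 7.75 against 5.42, 6.52, 7.03 and 6.84 (difference -2.38, adjusted p = 0.0107), and KRT18, of simple epithelium, 8.39, 8.31, 8.34 and 7.83 against 7.26, 6.74, 6.66 and 6.86 (difference -1.38, adjusted p = 0.00545). Neither overlapped, but KRT18 was well above background in every fibroblast-like line. The 2 measured probe sets of KRT18 gave differences of -1.38 and -0.22. KRT7 and KRT19, named after their values had been seen, did not part the kinds: KRT19 read 10.38 in MCF102A and 5.72 to 6.16 in the other epithelial lines, against 8.98 and 9.0 in HS579MG and HS739T and 5.61 and 5.65 in HS362T and HS605T. KRT7 was also higher in HS579MG (11.90) and HS739T (10.27) than in HS362T (8.13) and HS605T (7.03).

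Proteins of squamous differentiation and epithelial secretion were the other large epithelial group. Of 20 tested members 13 were called higher in epithelial lines, beside 16.6% of all genes. The median difference was -3.49 over the tested members and -1.84 over the 30 on the array, those under the filter included. Calls number 5 without MCF102A and 5 without MCF12A, but a gene above the array median in epithelial units alone cannot then pass the filter. SERPINB5, or maspin, read 13.04, 12.45, 12.31 and 11.54 against 3.25, 3.93, 2.89 and 3.42 (difference -9.10, adjusted p = 1.37e-05, at least 114-fold). SFN, the 14-3-3 protein of epithelium, differed by -7.34 and the antiprotease SLPI by -6.40. S100A8, a calcium-binding alarm protein, varied more, at 8.63, 12.55, 9.06 and 12.17 against 2.77 to 3.74 (difference -7.24, adjusted p = 0.00156): MCF12A and HMT3522T42 carried the most and all 4 fibroblast-like lines were under background. S100A2, a relative of it, read 13.98, 13.93, 13.92 and 13.72 in the epithelial lines and 8.54 to 9.36 in the fibroblast-like lines (difference -4.91), so both kinds express it. S100A14 was lost from the HMT3522 pair in steps, at 12.84, 11.03, 7.53 and 4.46 against 4.03 to 4.87. Other genes with very large epithelial differences were TNS4 (-7.65), an adaptor at cell-matrix contacts, the sodium channel subunit SCNN1A (-7.58), FAM83A (-7.50), the carbonic anhydrase CA2 (-7.31), TPD52 (-6.83) and VAMP8 (-6.81), a protein of vesicle fusion. The size of the SCNN1A difference rests on the choice of probe set: the 3 measured gave -7.58 to -0.56, and the chosen one gave the largest. TPD52 and VAMP8 were the reverse of particular to these lines: 42 and 29 of the 43 other units exceeded the lowest epithelial unit.

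Among epithelial transcription factors 6 of 15 tested genes were higher in epithelial lines and 1 in fibroblast-like lines, beside 16.6% and 13.3% of all genes. TRIM29, a partner of the basal programme, read 11.29, 10.02, 10.56 and 8.84 against 4.05, 3.33, 3.36 and 3.21 (difference -6.85, adjusted p = 9.89e-05). KLF5, a factor of basal and luminal progenitors, differed by -4.04, TFAP2A by -2.68 and BNC1, of stratified epithelium, by -2.26, and all 3 stayed above background in the fibroblast-like lines. FOXQ1 (difference -4.33, adjusted p = 0.0301) spanned 3.48 in HS605T to 9.0 in HS362T, so HS362T lay above HMT3522T42, which read 8.18. The gene that went the other way was ID4, an inhibitor of helix-loop-helix factors known from mammary basal cells: it was 2.39 to 2.92 in the epithelial lines and 10.95, 10.30, 9.28 and 9.99 in the fibroblast-like lines (difference 7.49, adjusted p = 4.46e-05). Of 9 tested luminal genes 5 were higher in epithelial lines and 1, XBP1, in fibroblast-like lines. FOXA1, a pioneer factor of luminal cells, read 9.77, 7.41, 6.93 and 6.41 against 3.46 to 4.87 (difference -3.77, adjusted p = 0.00999) and GATA3, which sets luminal fate, 7.30, 7.92, 8.68 and 7.96 against 3.13 to 6.04 (difference -3.76, adjusted p = 0.00958). Among the fibroblast-like lines, the estrogen receptor ESR1 and mammaglobin SCGB2A2, named after their values had been seen, were highest in HS739T, at 8.81 and 7.69. In the other fibroblast-like lines ESR1 read 4.42 to 5.67 and SCGB2A2 3.55 to 5.61. ESR1 was not particular to HS739T: its mean was higher in the epithelial units than in the fibroblast-like lines, and it was not called (difference -1.01, adjusted p = 0.649).

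Mesenchymal transcription factors divided into some that were under background in the epithelial lines and some that both kinds shared. Of 27 tested, 12 were higher in fibroblast-like lines, beside a background of 13.3% of all genes in that direction, and 2 in epithelial lines. PRRX1, a homeobox factor of limb and connective tissue, read 3.40, 4.10, 3.60 and 3.55 in the epithelial lines and 13.09, 12.64, 12.69 and 12.63 in the fibroblast-like lines (difference 9.07, SE 0.23, adjusted p = 2.15e-06, at least 140-fold), above each of the 43 other units. The T-box factors TBX5 and TBX15, of limb and body wall, differed by 6.66 and 4.47, HAND2 by 5.38, MEF2C by 4.49 and PRRX2 by 3.78. TBX5 was 3.13 to 3.32 in the epithelial lines and 9.52 to 10.28 in the fibroblast-like lines. SIX2 went the other way with a difference of -3.52, and TBX18 did so by less, at 8.85 to 9.83 against 7.96 to 8.85.

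Of the factors best known for switching off epithelial genes, SNAI2, TWIST1 and ZEB1 were above background in every line of both kinds. SNAI2 read 11.97, 11.54, 11.14 and 10.94 in the epithelial lines and 11.75, 11.20, 11.37 and 11.06 in the fibroblast-like lines (adjusted p = 0.645), and TWIST1 11.53, 12.74, 12.43 and 12.51 against 12.94, 12.67, 11.38 and 12.21 (adjusted p = 0.937). For both the ranges overlapped at a high level, although a test that misses its threshold does not show that levels are equal. ZEB1 read 7.86, 10.37, 10.12 and 10.71 against 11.36, 11.32, 11.55 and 11.48 (difference 1.88, adjusted p = 0.0526), so all 4 fibroblast-like lines were higher, MCF102A was lowest and the difference was not called. ZEB1 stood at the threshold: it was called without MCF102A (difference 1.04, adjusted p = 0.00328), without MCF12A (0.0487), without HMT3522T42 (0.0365) and without the HMT3522 pair (0.0483), and also with averaged probe sets (0.0328), a stricter filter (0.0462) and array weights (0.0345). Its relative ZEB2 differed by 1.96 (adjusted p = 0.00537) and SNAI1, a relative of SNAI2, by 2.75 (adjusted p = 0.00848). The size of the ZEB2 difference rests on the choice of probe set: the 4 measured gave 0.23 to 1.96, and the chosen one gave the highest. ZEB2 lost its call in a fit on all 50 units (adjusted p = 0.107). With the array measure as a covariate neither ZEB2 nor SNAI1 was called (adjusted p = 0.102 and 0.348). VIM, or vimentin, the filament often used to mark mesenchyme, read 13.06, 13.18, 13.39 and 13.37 against 13.57, 13.49, 13.47 and 13.54: the difference of 0.31 (adjusted p = 0.0251) passed the test and is small. CAV1, of caveolae, overlapped at 12.98 to 13.24 against 12.83 to 12.99, though it was called with averaged probe sets (difference -0.46, adjusted p = 0.0113). SNAI1, SNAI2, TWIST1, ZEB1, ZEB2, VIM and CAV1 were named after their values had been seen.

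HOX genes, which record position along the body, were higher in fibroblast-like lines in 7 of 21 tested and in epithelial lines in 1. Of all genes 13.3% and 16.6% were higher in those directions. HOXB5 read 4.14, 7.29, 4.54 and 3.85 against 9.95, 10.66, 11.03 and 10.14 (difference 5.23, adjusted p = 0.00398), HOXC8 differed by 3.21, HOXD8 by 3.74 and HOXC6 by 2.06. HOXC13 was the reverse, at 8.91, 8.59, 10.04 and 8.24 against 4.69 to 5.33 (adjusted p = 0.000109). HOXB3 showed a split inside the epithelial lines: 8.34 and 8.23 in MCF102A and MCF12A and 4.55 and 4.24 in the HMT3522 pair, against 9.74 to 10.66 in fibroblast-like lines (adjusted p = 0.0387).

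**Figure D3:**
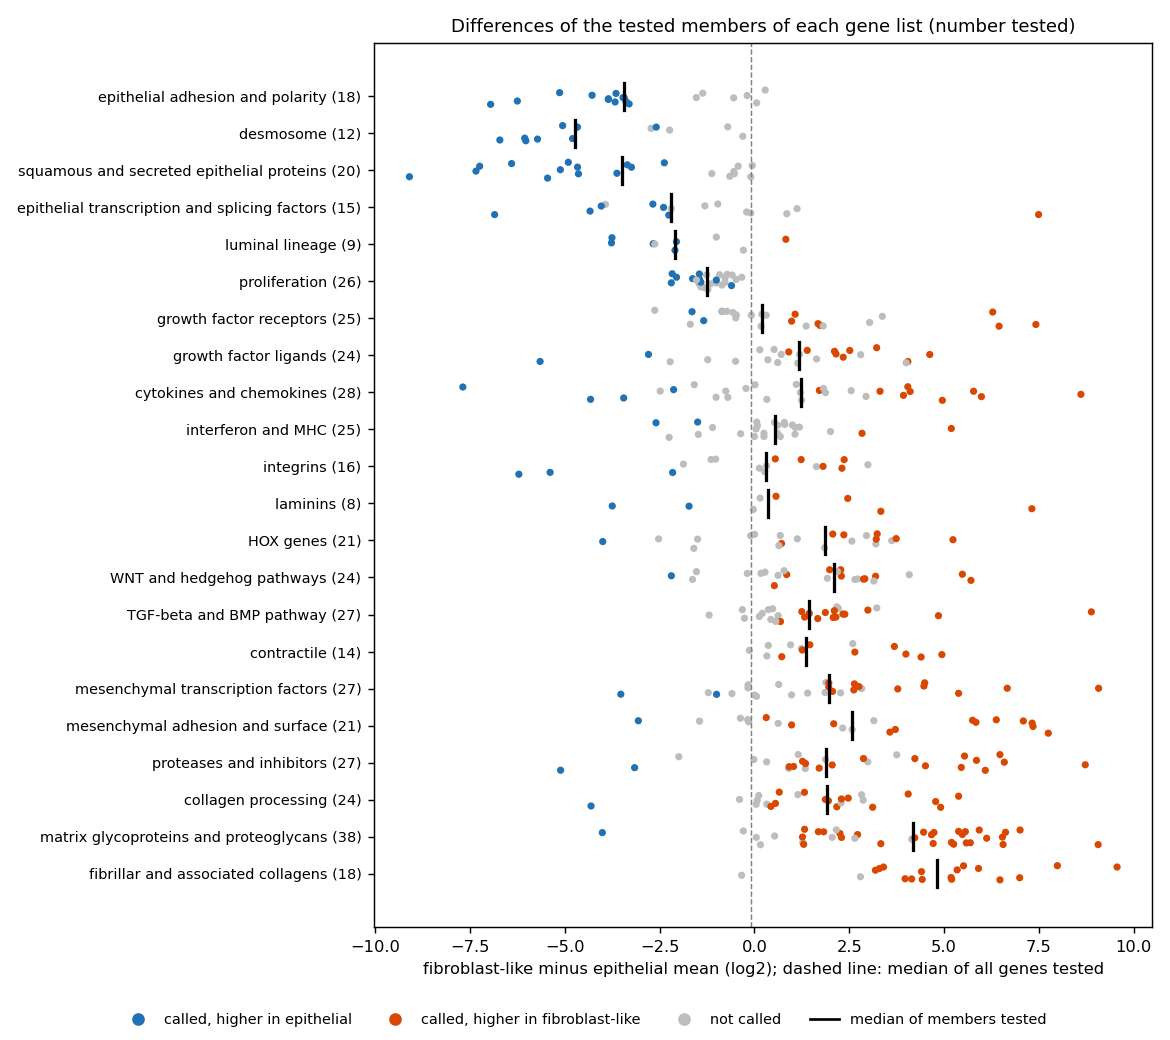
Difference between fibroblast-like and epithelial means (log2, horizontal axis) for each tested member of 22 gene lists, a point per gene, coloured where called, with the median of the tested members as a bar and the median of all genes tested dashed. Fibrillar collagens and matrix glycoproteins have the highest medians, 4.80 and 4.19, and desmosome genes the lowest, -4.73; laminins and integrins hold members far out on both sides.

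Collagens had the highest median difference of the lists. Of 18 tested fibrillar and associated collagens 16 were higher in fibroblast-like lines, beside 13.3% of all genes, and COL27A1 and COL8A1 were not called. The median difference of the 18 was 4.80 (4.40 over the 21 members on the array). COL15A1, a collagen next to basement membranes, read 2.90, 4.32, 3.91 and 3.59 against 11.74, 11.39, 11.70 and 11.73 (difference 7.98, adjusted p = 1.69e-05). The first chain of type I collagen, COL1A1, was less empty in the epithelial lines than its partner COL1A2, at 6.77, 10.76, 9.0 and 9.18 against 14.16 to 14.28 (difference 5.34, adjusted p = 0.00419). COL3A1 read 3.54, 9.81, 3.89 and 5.01 against 12.88 to 12.99, with MCF12A far above the other epithelial lines. COL6A3 differed by 5.91 and COL8A2 by 5.51.

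The enzymes that fold, trim and cross-link collagen had a lower median difference than the collagens themselves, 1.91, which was not tested. Of 24 tested, 14 were higher in fibroblast-like lines, beside 13.3% of all genes. PCOLCE, which speeds the trimming of procollagen, differed by 5.38, the cross-linking oxidases LOXL1, LOXL4 and LOXL3 by 4.91, 4.78 and 4.05, and the hydroxylase P4HA3 by 3.12. The collagen chaperone SERPINH1 was at 10.03, 10.56, 10.43 and 10.77 against 12.13, 12.34, 12.66 and 12.25 (difference 1.95, adjusted p = 0.000776), high in both kinds. TLL1, a protease that trims procollagen, went the other way, at 9.67, 5.83, 7.29 and 4.33 against 2.61 to 3.07 (difference -4.31, adjusted p = 0.0133).

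Matrix glycoproteins and proteoglycans were higher in fibroblast-like lines in 28 of 38 tested genes, beside 13.3% of all genes. The median difference of the 38 was 4.19 (3.74 over the 40 members on the array). SPARC, a collagen-binding protein, read 3.19, 5.01, 3.47 and 3.0 against 12.72, 12.78, 13.02 and 12.97 (difference 9.06, adjusted p = 3.38e-05, at least 151-fold), and FNDC1, a protein with fibronectin repeats, differed as much, by 9.06. THBS2, a thrombospondin, read 6.12, 6.64, 5.09 and 8.65 against 13.22 to 13.70. CTHRC1 differed by 6.62, FBLN5, of elastic fibres, by 6.55, and MFAP4 by 6.12. Fibronectin itself, FN1, was high everywhere by the chosen probe set, lowest in MCF102A and 12.12 to 12.72 in the other epithelial lines, against 13.16 to 13.40 (difference 1.30, adjusted p = 0.0362). The size of the FN1 difference rests on the choice of probe set: the 3 measured gave 1.30 to 4.29, and the chosen one gave the lowest. The hyaluronan synthase HAS3 was the 1 member higher in epithelial lines, at 10.85, 8.77, 8.79 and 9.50 against 5.09 to 5.93 (difference -4.01, adjusted p = 0.0024), while its relative HAS2 was not called and read 3.79 in HMT3522T42 and 10.94 in MCF12A. Decorin, DCN, a proteoglycan that coats collagen, failed the test for its spread among epithelial lines: 4.56, 13.29, 6.58 and 11.13 against 13.44, 13.25, 12.95 and 12.55 (difference 4.15, adjusted p = 0.119). MCF12A lay within the fibroblast-like range for DCN.

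Some chains of the basement membrane differed between the kinds, in both directions. Of 6 tested collagens of this layer 2 were higher in each kind, and of 8 laminin chains 4 were higher in fibroblast-like lines and 2 in epithelial lines. Of all genes 13.3% and 16.6% were higher in those directions. The counts are small, and the split was not tested against those shares. COL4A6 and COL4A5, chains that pair in the type IV collagen of epithelia, read 10.94, 9.65, 10.70 and 11.29 and 9.87, 9.12, 9.67 and 10.37 in the epithelial lines and no more than 3.73 and 3.58 in the fibroblast-like lines (differences -7.05 and -6.43, adjusted p = 4.53e-05 and 3.38e-05). COL4A2 of the common network was at 10.83 to 12.20 on the epithelial side and 11.04 to 12.26 on the other (adjusted p = 0.794). Its partner COL4A1 was called higher in fibroblast-like lines (difference 4.91, adjusted p = 0.000822), but its probe sets disagree: the chosen one reads 7.91, 6.48, 5.55 and 12.06 in the epithelial lines, another reads 12.37, 10.93, 11.16 and 11.96, and that one ranges from 10.94 to 12.64 in the fibroblast-like lines, so the COL4A1 difference rests on the choice of probe set. Laminin chains also split. LAMB3, a chain of the laminin that anchors epithelium, read 13.36, 11.35, 11.35 and 8.82 against 8.49, 7.07, 8.11 and 7.73 (difference -3.75, adjusted p = 0.0104) and LAMA5 differed by -1.73, while LAMA4, of mesenchymal basement membranes, read 4.09, 4.90, 4.28 and 3.79 against 11.86, 11.94, 11.51 and 11.29 (difference 7.31, adjusted p = 1.37e-05), LAMA2 differed by 3.33 and LAMB2 by 2.46. LAMB1 was shared, at 11.28 to 12.32 against 11.60 to 12.10. With the array measure as a covariate neither epithelial laminin call remains.

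Of 16 tested integrins 5 were higher in fibroblast-like lines and 3 in epithelial lines, the latter near the 16.6% of all genes (13.3% in the other direction). ITGB4, which with ITGA6 forms the hemidesmosome integrin, read 11.61, 10.56, 10.83 and 10.01 against 5.59, 5.17, 5.57 and 5.57 (difference -5.39, adjusted p = 8.83e-05), at or under background in every fibroblast-like line. ITGA6, its partner, was kept there, at 12.46 to 13.13 against 12.05, 12.10 and 12.14 in HS579MG, HS605T and HS739T and 10.16 in HS362T (adjusted p = 0.126). ITGB6, an epithelial integrin that frees TGF-beta, stepped down from 12.33 in MCF102A through 8.61 and 8.31 in MCF12A and HMT3522S1 to 5.50 in HMT3522T42, against 2.82 to 3.35 (difference -6.21, adjusted p = 0.00814). The collagen-binding ITGA11 and ITGA1 were higher in fibroblast-like lines by 2.31 and 2.36, and ITGB1, the chain common to most of these receptors, was high in both kinds, at 12.93 to 13.26 against 13.32 to 13.48, and was not called (adjusted p = 0.0664; with averaged probe sets it was, at 0.0123). Of the discoidin receptors, kinases that sense collagen, DDR2 read 5.44, 7.98, 5.99 and 6.25 against 12.82, 12.76, 12.88 and 12.72 (difference 6.28, adjusted p = 0.00045) while DDR1 overlapped, at 9.79 to 11.07 against 9.64 to 10.21 (adjusted p = 0.235).

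**Figure D4:**
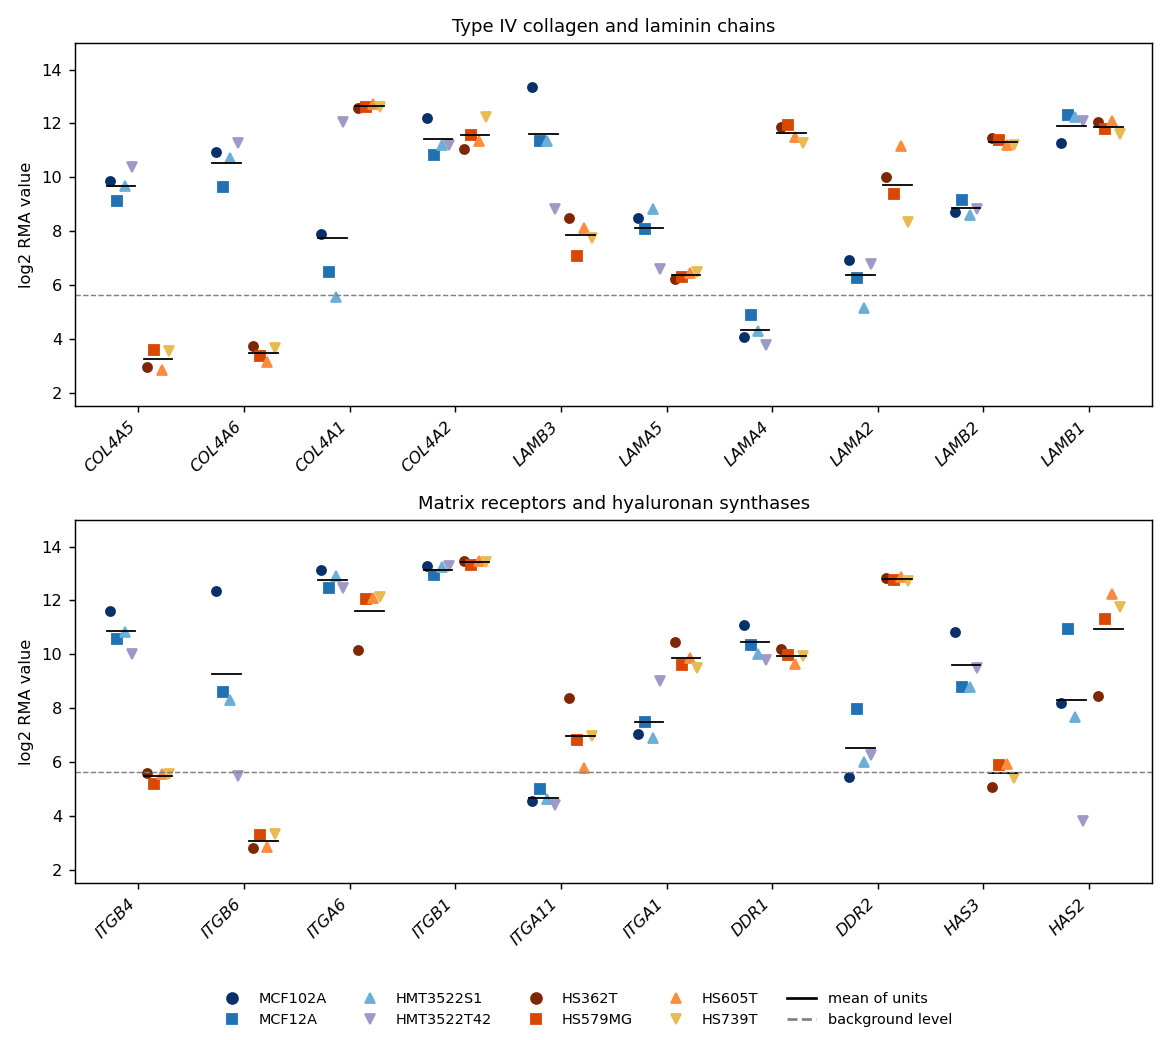
Log2 RMA value of 20 genes of the basement membrane, matrix receptors and hyaluronan synthesis in each of the 8 lines, with the mean of the units as a bar and the background level of 5.64 dashed. COL4A5, COL4A6 and ITGB4 are high only in the 4 epithelial lines among the 8, LAMA4 and DDR2 reach over 11 only in the 4 fibroblast-like lines, and LAMB1 and ITGB1 are high in all 8.

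Surface and contractile genes of mesenchyme were higher in fibroblast-like lines in 12 of 21 and 8 of 14 tested members, beside 13.3% of all genes. THY1, or CD90, a surface protein of fibroblasts, read 5.10, 5.05, 4.86 and 4.55 against 12.05, 12.39, 12.24 and 12.51 (difference 7.34, adjusted p = 2.15e-06). LRRC15, known from activated fibroblasts, differed by 7.75 and reached 12.04 in HS362T but 9.26 in HS739T, CDH6 by 7.32, TMEM119 by 7.09, and the cadherin CDH11 by 6.37. CDH11 showed the MCF12A pattern again, at 10.67 in MCF12A and 2.93 to 4.73 in the other epithelial lines. N-cadherin, CDH2, read 8.15, 9.48, 8.51 and 8.92 against 12.10, 12.22, 12.59 and 12.49 (difference 3.57, adjusted p = 0.000448), above background in both kinds. PDPN, or podoplanin, a surface protein of basal cells and of some fibroblasts, was higher in epithelial lines, at 10.37, 8.97, 10.17 and 10.93 against 6.62 to 7.16 (difference -3.06, adjusted p = 0.00258). Of the contractile genes TAGLN differed by 4.94, MYL9 by 4.39 and CNN1 by 3.69, while smooth-muscle actin, ACTA2, was at 9.32, 10.02, 6.13 and 7.54 against 11.59, 11.52, 9.76 and 12.38 and was not called (adjusted p = 0.0619).

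Of 25 tested growth factor receptors 7 were higher in fibroblast-like lines and 3 in epithelial lines, where 13.3% and 16.6% of all genes were, and the median difference was 0.19. PDGFRA, a receptor for platelet-derived growth factor, read 2.76, 6.23, 4.55 and 8.86 against 12.80, 12.59, 12.57 and 12.65 (difference 7.42, adjusted p = 0.00172). HMT3522T42 was the highest epithelial line for it, as for PDGFRB, which read 4.16, 4.41, 4.68 and 6.83 against 12.25, 11.35, 10.42 and 10.88 (difference 6.45, adjusted p = 0.000397). Their ligands were not arranged as mirror images: PDGFA (adjusted p = 0.474) and PDGFC (adjusted p = 0.152) overlapped between the kinds, PDGFB was under background in all 8 lines, and PDGFD was itself higher in fibroblast-like lines, by 4.04. EGFR, the receptor that epithelial cultures depend on, read 11.95, 11.18, 11.32 and 11.27 against 10.16, 10.22, 10.24 and 9.92 (difference -1.34, adjusted p = 0.00447), a smaller step between high levels. Of the ligands of EGFR, EREG read 7.70, 10.11, 8.18 and 11.05 against 3.01 to 4.04 (difference -5.65, adjusted p = 0.00102), whereas TGFA (adjusted p = 0.0975) and HBEGF (adjusted p = 0.159) were not called.

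Other pairs of ligand and receptor gave mixed answers. MET, the receptor for HGF, was high in both kinds, at 11.62 to 12.53 against 11.18 to 12.19 (adjusted p = 0.191), while HGF reached 7.02 and 6.32 in HS605T and HS739T only and was under background in the other 6 lines. NRG1 read 5.22, 6.18, 6.77 and 5.99 against 8.06, 9.21, 7.13 and 7.76 (difference 2.11, adjusted p = 0.0236), and its receptor ERBB3 was on at 10.49 in MCF102A and no higher than 6.31 elsewhere. KITLG was higher in fibroblast-like lines by 1.39 (adjusted p = 0.0227), and KIT rose above background in HS362T (7.52) and HS579MG (6.75) only. IGF1 was higher by 2.51 (adjusted p = 0.0174) and IGF1R was not called (adjusted p = 0.767). FGF2 and FGFR1 were both higher in fibroblast-like lines, by 2.15 and 1.67 (adjusted p = 0.0488 and 0.00506), and BDNF, FGF5 and MDK by 4.62, 3.22 and 2.34. IGFBP5, which binds insulin-like growth factors, was under background in all epithelial lines and 9.26, 8.61, 12.02 and 12.03 in the fibroblast-like lines (difference 8.04, adjusted p = 0.00147), and 25 of the 43 other units exceeded the lowest of these. The IGFBP5 difference rests on the choice of probe set: its 4 probe sets gave 2.78 to 8.04, and the one with the highest mean over the 8 arrays gave 3.98, which was not called (adjusted p = 0.0772).

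**Figure D5:**
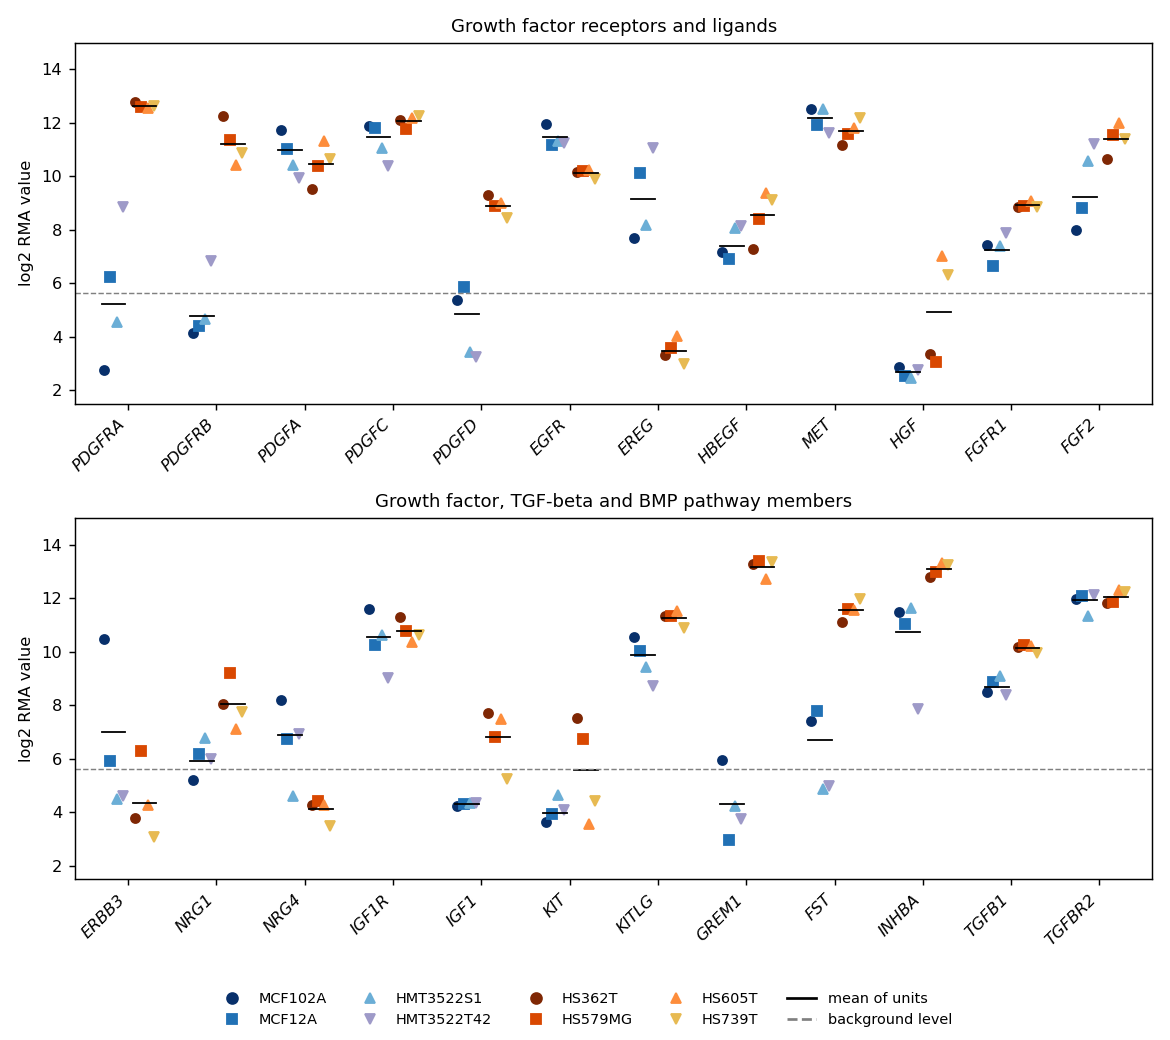
Log2 RMA value of 24 growth factor, TGF-beta and BMP pathway genes in each of the 8 lines, with the mean of the units as a bar and the background level of 5.64 dashed. PDGFRA, PDGFRB and GREM1 are over 10 only in the 4 fibroblast-like lines, EREG is above background only in the 4 epithelial lines, and MET, PDGFC and TGFBR2 are high in all 8.

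In the TGF-beta and BMP pathway 14 of 27 tested members were higher in fibroblast-like lines, beside 13.3% of all genes. The median difference of the 27 was 1.45 (0.98 over the 35 members on the array). GREM1, which traps BMPs, read 5.96, 2.99, 4.23 and 3.75 against 13.30, 13.39, 12.72 and 13.35 (difference 8.88, adjusted p = 0.000206), above each of the 43 other units. FST, or follistatin, which traps activins, read 7.41, 7.81, 4.89 and 4.99 against 11.12, 11.61, 11.57 and 11.99 (difference 4.85, adjusted p = 0.00286). The activin chain INHBA was 11.49, 11.04, 11.63 and 7.88 against 12.82 to 13.33 (difference 2.33, adjusted p = 0.00563), with HMT3522T42 well under the other epithelial lines. Of the signal transducers SMAD9 differed by 2.99 and the inhibitor SMAD7 by 2.38, TGFB1 was higher by 1.45 (adjusted p = 0.00147), and the receptor TGFBR2 overlapped between the kinds, at 11.36 to 12.14 against 11.85 to 12.33 (adjusted p = 0.576).

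WNT and hedgehog genes were higher in fibroblast-like lines in 10 of 24 tested and in epithelial lines in 1, the receptor FZD5 (difference -2.19, adjusted p = 0.0101). Of all genes 13.3% and 16.6% were higher in those directions. SFRP2, a secreted WNT antagonist, differed by 5.71 and had the widest range of any called gene over the fibroblast-like lines, at 13.06, 11.21, 6.49 and 9.67. RSPO3, which strengthens WNT signals, read 3.88, 4.20, 3.15 and 3.03 against 7.88 to 10.10 (difference 5.48, adjusted p = 0.00127). The receptor FZD7 differed by 3.19, the WNT target AXIN2 by 2.91, WNT5B by 2.88 and the hedgehog factor GLI2 by 2.29. DACT1, an intracellular modulator of WNT signals, was among the largest differences of all genes, at 8.53: it was 5.91 in HMT3522S1, 2.99 to 3.32 in the other epithelial lines and 11.97 to 12.27 in the fibroblast-like lines.

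Proteases were higher in fibroblast-like lines in 16 of 27 tested genes and in epithelial lines in 2, beside 13.3% and 16.6% of all genes. MMP3, or stromelysin, read 2.97, 3.18, 5.60 and 3.65 against 13.31, 13.16, 10.59 and 12.18 (difference 8.72, adjusted p = 0.000403, at least 102-fold), and the collagenase MMP1 7.33, 3.73, 7.29 and 10.47 against 12.91 to 13.50 (difference 6.59, adjusted p = 0.00546). SERPINF1 differed by 6.47, MMP16 by 6.08, the collagen-degrading cathepsin CTSK by 5.85 and ADAMTS1 by 5.54. MMP28 and PLAU, or urokinase, were the 2 on the epithelial side: MMP28 read 9.57, 9.31, 9.02 and 7.47 against 3.49 to 4.33 (difference -5.11, adjusted p = 0.000206) and PLAU differed by -3.16. The urokinase receptor PLAUR was higher on the fibroblast-like side by 1.35 (adjusted p = 0.0365).

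Of 28 tested cytokines and chemokines 9 were higher in fibroblast-like lines and 4 in epithelial lines, the latter no larger a share than the 16.6% of all genes (13.3% in the other direction). IL18, an alarm cytokine of epithelium, read 11.58, 9.94, 10.27 and 8.63 against 2.54, 3.70, 1.99 and 2.31 (difference -7.69, adjusted p = 0.000319). CCL20 and IL1A were also epithelial, with differences of -4.32 and -3.45, though IL1A was 7.93 in HMT3522T42, within the 5.30 to 8.25 of the fibroblast-like lines. Its relative IL33 was the converse of IL18, under background in the epithelial lines and 5.72, 9.60, 11.75 and 8.27 in the fibroblast-like lines (difference 5.78, adjusted p = 0.0144). PTGIS, which makes prostacyclin, was even within each kind, at 3.24 to 3.62 against 12.07, 12.23, 12.33 and 11.78 (difference 8.61, SE 0.20, adjusted p = 1.79e-06). CXCL6 differed by 5.98, CCL2 by 4.95, PTGS1 by 4.10 and IL6 by 3.93. CXCL8, named after its values had been seen, was high in both kinds, at 7.99 to 11.08 against 8.69 to 12.09 (adjusted p = 0.39). Of 25 tested interferon and MHC genes 2 were called in each direction: XAF1 (difference 5.19) and IFI27 (2.84) were higher in fibroblast-like lines, OAS1 (-2.60) and TAP2 (-1.50) in epithelial lines. The 3 measured TAP2 probe sets gave differences of -1.50 to -0.20.

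Of 26 genes of proliferation 10 were called higher in epithelial lines, beside 16.6% of all genes, with a median difference of -1.25. The called members were genes of DNA replication and of the entry into it: MCM2, MCM3, MCM4, MCM6, MCM7, PCNA, RRM2, CCNE1, CCNE2 and MYBL2. The replicative helicase gene MCM2 read 10.13, 10.56, 10.95 and 11.06 against 7.63, 9.25, 8.23 and 8.46 (difference -2.17, adjusted p = 0.00806), MYBL2 differed by -2.19, the cyclin CCNE2 by -2.05 and MCM3 by -1.63. MKI67, the usual growth marker, was 9.85, 9.83, 11.60 and 11.37 against 8.13, 10.27, 8.35 and 8.68 and was not called (adjusted p = 0.107); HS579MG lay above MCF102A and MCF12A for it. The count depends on the lines and on the array measure: 17 members were called without HS579MG, 7 without HS605T and 6 without the HMT3522 pair. With the array measure as a covariate 0 of the 26 were called by limma (lowest adjusted p = 0.0959), while 3 had an unadjusted p under 0.05. MCM3 then differed by -0.37, CCNE2 by -0.69 and MYBL2 by -0.83 (adjusted p = 0.771, 0.739 and 0.648). MYC, which drives growth genes, read 12.08, 12.40, 12.59 and 12.51 against 8.24, 10.57, 10.32 and 9.79 (difference -2.61, adjusted p = 0.0116) and the cyclin CCND1 11.73 to 12.46 against 13.04 to 13.64 (difference 1.21, adjusted p = 0.00472).

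At the 9p21 locus the epithelial lines fell into separate patterns. CDKN2B, an inhibitor of cyclin-dependent kinases, read 3.16 and 3.14 in MCF102A and MCF12A and 8.44 and 7.51 in HMT3522S1 and HMT3522T42, against 8.99 to 10.36 in the fibroblast-like lines (difference 4.94, adjusted p = 0.0204). Its neighbour CDKN2A was 4.40 and 3.43 in MCF102A and MCF12A, 11.35 and 11.16 in the HMT3522 pair and 8.80 to 9.85 in the fibroblast-like lines (adjusted p = 0.242). MTAP, the next gene along, parted MCF102A from MCF12A: it read 2.28 in MCF102A and 9.73 in MCF12A, with 8.41 to 10.50 in the other 6 lines. CDKN2A and MTAP were named after their values had been seen.

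Epithelial lines stood further apart from one another than fibroblast-like lines did, as a description without a test. Across the genes tested, arrays of 2 fibroblast-like lines correlated at 0.921 to 0.967 (Pearson r across genes, which are not independent), arrays of 2 epithelial lines at 0.839 to 0.929 and arrays across the kinds at 0.652 to 0.758. Between 199 and 478 genes differed by at least 4-fold within a fibroblast-like pair, 473 to 1130 within an epithelial pair and 1451 to 1998 across the kinds. The median SD of a gene was 0.37 over the 3 epithelial units and 0.23 over the 4 fibroblast-like lines. Of the 721 genes of the fibroblast-like set 47.3% were above background in MCF12A, against 35.1% in MCF102A, 40.6% in HMT3522S1 and 41.1% in HMT3522T42. Those genes were called with these same arrays, and the share over all genes tested was not worked out per line. The array median was also highest in MCF12A (5.50) and lowest in MCF102A (5.40) among the lines compared. LUM, or lumican, was the widest case among genes called, at 10.92 in MCF12A, 5.66 in HMT3522T42 and 2.34 and 3.09 in MCF102A and HMT3522S1, against 12.09 to 12.61 in the fibroblast-like lines. VCAN, or versican, was 10.65 in MCF12A and 3.81 in MCF102A (its call is lost, adjusted p = 0.0514, with the probe set chosen over the 8 arrays), and PLIN2, a protein of lipid droplets, at 9.15 in MCF12A and 2.69 to 3.13 in the other epithelial lines. Other genes went their own way: MARCKS was 8.14 and 10.03 in MCF102A and MCF12A and 3.62 and 2.44 in the HMT3522 pair, and FBLN5 was 12.01 in HMT3522T42, within the fibroblast-like range, and 3.48 and 3.54 in MCF102A and MCF12A.

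HMT3522T42 and HMT3522S1, 1 array each and so without any test, differed by at least 4-fold in 473 genes. The chains of type V collagen ran opposite ways: COL5A1 was 10.42 in HMT3522S1 and 3.61 in HMT3522T42, and COL5A2 was 4.0 in HMT3522S1 and 10.51 in HMT3522T42, and the other probe sets of both genes ran the same way. All 4 fibroblast-like lines had both chains, at 12.78 to 12.91 for COL5A1 and 11.61 to 12.12 for COL5A2. CD74, a chaperone of MHC class II, was 5.65 in HMT3522S1 and 11.92 in HMT3522T42, and HLA-DRA, named after its values had been seen, 2.86 and 8.72. IL1R2, a decoy receptor for interleukin-1, was 12.10 in HMT3522T42 and 12.53 in MCF12A but 5.33 in HMT3522S1 and 4.01 in MCF102A. HMT3522T42 alone lacked some genes that the other 7 lines shared: MRFAP1L1 was 3.32 in it and 11.52 to 12.19 in the others, GNB4, a G-protein subunit, 3.62 against 10.41 to 11.26, and SNX19 4.02 against 10.50 to 11.15 (1 of the 4 SNX19 probe sets was low in all lines). MGP, an inhibitor of calcification, was 10.66 in HMT3522S1 and 4.22 in HMT3522T42, and the galanin gene GAL 10.91 and 4.79. Of the 446 genes of the epithelial set 90.6% were above background in HMT3522T42 and 98.7% in HMT3522S1. Those genes were called with the mean of these arrays, and the share over all genes was not worked out. CDH1, MAL2, CDS1 and S100A14 were among the genes for which, of the epithelial lines, HMT3522T42 alone was under background. AP1M2, a sorting adaptor of epithelial cells, ran against that trend, at 4.71 in HMT3522S1 and 9.35 in HMT3522T42.

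Among the 10 called genes with the widest range over the fibroblast-like lines, 1 line often stood apart. HAPLN1, which links hyaluronan to proteoglycans, was 3.91 in HS362T and 8.43, 9.69 and 10.20 in HS579MG, HS605T and HS739T, and RELN, a secreted guidance protein, was 4.20 in HS362T and 8.74 to 10.14 in the other 3. HS739T stood low for FMOD, or fibromodulin, at 5.85 against 9.06 to 11.68, for CH25H, which makes an oxysterol, at 5.94 against 8.75 to 10.89, and for PSG5, a pregnancy-specific glycoprotein, at 6.90 against 11.29 to 11.78. HS605T stood high for FGL2, at 11.96 against 6.87 to 8.34. Against that spread, NRN1 (difference 8.40) and ISLR (8.64), among the largest differences of all, kept within 11.92 to 12.27 and 11.84 to 12.36 in the 4 lines.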

How the data were processed

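Each cell line was profiled on 1 custom Affymetrix array from total RNA that had been amplified and labelled with biotin, per the labels' protocols. The deposited values are log2 signals that the authors made with RMA in Affymetrix Power Tools, per the submitters' processing notes; versions and the medium of each line are not given in the sources used here. RMA gives every array the same distribution, so a change in total RNA per cell cannot be seen.

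Of 52377 probe sets 35184 matched 1 gene, 374 matched several and 16819 were unnamed in the platform table; only the first kind was used. Each of the 19798 genes was read from its probe set with the highest mean over the 58 arrays, and 8731 genes had a choice. The size of a difference can depend on that choice, as for CDH11, whose 4 measured probe sets gave 1.04 to 6.37. A gene was tested if it lay above the array median in at least 3 of the 7 units, which kept 12190 genes; a gene high in only 1 or 2 epithelial units could not enter. Units were compared in limma 3.58.1 (R 4.3.3) with a trended, robust variance and Benjamini-Hochberg adjustment over all genes tested, and a gene was called at an adjusted p under 0.05. The number of arrays limits the precision.

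The lines, the gene lists and the genes followed here were chosen with earlier results of these data known. The text names KRT5, CDH1 and COL1A2, the 15 genes with the largest differences each way, up to 6 called members of each list each way, partners of named ligands, receptors and complexes, the 10 widest called genes within each kind, the 10 largest differences each way between HMT3522T42 and HMT3522S1, and genes next to the threshold; some that the rule allows were left unnamed. Beside those marked in the text, these were added after their values had been seen: ACTA2, CDH2, CLDN1, COL1A1, COL8A1, COL27A1, DCN, FN1, HAS2, DDR1, IL6, MKI67, MARVELD2, PARD6B, PLAUR, S100A2, SERPINH1, SPINT1, AP1M2, TGFB1, TGFBR2 and the smaller called genes of proliferation. Genes of the lists without a probe set of their own were not analysed here.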

Additional observations from a re-analysis of the deposited data

Results flagged for a closer look

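Among 260 genes followed here, 17 had 1 fibroblast-like line whose gap to the nearest of the other 3, divided by the range of all 4, was above Dixon's 95% critical value for 4 samples; chance alone marks about 1 in 20 groups. HS362T stood apart for DNM3OS (10.58, the others 9.46 to 9.63), PRRX1 (13.09, the others 12.63 to 12.69), PTGS1 (11.64, the others 10.29 to 10.49) and ITGA6 (10.16, the others 12.05 to 12.14). HS579MG stood apart for ABCC9 (5.12, the others 6.30 to 6.50), COL15A1 (11.39, the others 11.70 to 11.74), ITGB4 (5.17, the others 5.57 to 5.59), MCM7 (10.70, the others 10.08 to 10.18) and ZEB2 (10.22, the others 9.71 to 9.78). HS605T was low for CDS1 (3.40, the others 4.64 to 4.88), GREM1 (12.72, the others 13.30 to 13.39) and KLF5 (6.22, the others 7.87 to 8.12). The same line was high for FGFR1 (9.09, the others 8.84 to 8.88) and HOXC13 (5.33, the others 4.69 to 4.76). HS739T was low for PSG5 (6.90, the others 11.29 to 11.78) and high for DSC3 (5.04, the others 3.19 to 3.47) and PLAU (8.78, the others 6.77 to 7.11). The values of CDS1, DSC3, HOXC13 and ITGB4 in these 4 lines were all at or under the background level of 5.64.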

How the results depend on the processing

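COL1A2 kept its direction and its call under every alternative run, and KRT5 under every one in which it was tested; without MCF102A, MCF12A or the HMT3522 pair KRT5 fell under the filter, as CDH1 did there and without HMT3522S1. CDH1 kept its direction but lost its call without HS362T (-4.91) and without HS605T (-5.09), in a fit on all 50 units (-5.14), with the array measure as a covariate (-6.52) and at an adjusted p under 0.01 (-5.14). Leaving out 1 line or the HMT3522 pair gave 1114 to 1698 genes higher in fibroblast-like lines and 1306 to 2071 higher in epithelial lines, with 1322 of the latter without HS739T and 1306 without the pair. The epithelial genes with a difference of at least 2 numbered 265 without MCF102A, 260 without MCF12A and 263 without the HMT3522 pair, where the filter on dim genes also leaves fewer to test. A fit on all 50 units called 532 and 753 genes, of them 418 and 232 with a difference of at least 2, together 650. The array measure as a covariate left 195 and 93, of them 181 and 89 with a difference of at least 2, together 270, and the cause was not tested. An adjusted p under 0.01 left 766 and 784. Of the 3649 calls, 3580 were shared by a second quantile normalization, 3196 by averaging the probe sets that a gene has and 3630 by choosing the probe set over the 8 arrays, an alternative chosen after seeing the data, as was leaving out HMT3522S1. Over 4614 values of single genes under the alternatives 539 kept direction and lost the call and 54 kept direction and gained it. The other 4021 were called in the same direction in both runs or called in neither. For genes called in neither run the direction was not checked. Genes that fell under the filter in a run are not among the 4614. Leaving out cross-hybridising probe sets was not run, because the probe sets used carry no such mark. No paired analysis was possible because the samples carry no replicate numbers.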
